A study of Mus musculus with 2 samples.

Results

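The cells described here carried UMIs (deduplicated RNA molecules) of the transcription factor genes Tcf7 and Lef1 and of the CD3 genes, but none of either T cell co-receptor. They were taken from 2 single-cell RNA libraries of mouse gut. A cell that passed the quality limits (200 to 6000 genes, at most 15% mitochondrial UMIs) was a member when it had at least 2 UMIs of Tcf7 and Lef1 together, at least 1 UMI of Cd3d, Cd3e and Cd3g together, and 0 UMIs of Cd4, Cd8a, Cd8b1, Foxp3, Csf1r and Cd79a. The members were thus selected on their UMIs of these genes, which are no findings here. In all, 439 of 20052 kept cells met the rule. In the Runx3_fl library 301 of 11885 kept cells were members, and in the Runx3 library 138 of 8167.

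Tcf7 encodes TCF-1 and Lef1 encodes LEF-1, related HMG-box factors that bind beta-catenin and Groucho/TLE co-repressors and hold T cells in a naive or memory-like state. Their levels fall as T cells become terminal effectors. TCF-1 is also expressed in developing and less mature natural killer (NK) cells and innate lymphoid cells, so its RNA alone does not define a T cell. T cells without CD4 and CD8 are found in the gut among intraepithelial and lamina propria lymphocytes, some with an alpha-beta and some with a gamma-delta receptor, and a proportion of them express the Helios gene, Ikzf2.

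The study compared Runx3 fl/fl mice with Runx3 fl/fl mice carrying Lyz2-Cre, which drives recombination in myeloid cells. Each genotype is 1 library, made from male mice that were pooled, per the study, and neither title states whether Cre was present. Cells came from colon lamina propria through a Percoll gradient and 7-AAD exclusion of dead cells, and the labels describe them as CD11b+. The titles Runx3_fl and Runx3 are used below as names of libraries, not as genotypes.

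With 1 library per group there is no replicate and no test between the libraries. Levels are UMIs summed over a class of cells and given as CPM, counts scaled to a class total of 1e+06. The ranges in parentheses are exact 95% intervals, Poisson for levels and ratios and Clopper-Pearson for shares. They cover counting error only and not differences between animals, preparations or cells. Ratios are log2 of CPM + 1, and a gene is counted as higher or lower at 1 log2 unit or more, among genes with at least 50 CPM and a UMI in at least 10% of the cells of either class; genes of the rule are left out.

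The Runx3_fl library was the deeper one, with 146204416 UMIs in 12968 barcodes against 75478164 in 8953, and a median of 9573 against 5731 UMIs in a kept cell. The libraries shared 37 barcodes, none of them held by a member cell in both. Xist, the long noncoding RNA of the inactive X chromosome, had a UMI in 29.9% of the kept cells of Runx3_fl and in 0.122% of those of Runx3, although the study describes male animals. Among the member cells of Runx3_fl, 73 had Xist and no Y-linked UMI, 191 had a Y-linked UMI and no Xist, 22 had both and 15 had neither; in Runx3 the same counts were 0, 127, 0 and 11. Runx3 RNA in cells with at least 2 Csf1r UMIs and no Cd3 or Cd79a UMI was 164 CPM (158 to 169) in Runx3_fl and 222 CPM (216 to 229) in Runx3. Because reads come from the 3′ end and the deleted exon is not given in the sources used here, that level does not check the genotype. The member cells, like the whole libraries, therefore differ in depth, in Xist and in Runx3 RNA of myeloid cells, and these cannot be told apart from genotype.

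The member cells were a larger share of the Runx3_fl library but a larger share of the T cells of the Runx3 library. They were 2.53% (2.26 to 2.83) of kept cells in Runx3_fl and 1.69% (1.42 to 1.99) in Runx3. Of cells with at least 2 CD3 UMIs they were 5.49% (192 of 3499) and 17.6% (121 of 688). Of all Tcf7/Lef1 T cells, meaning cells that met the Tcf7/Lef1, CD3, Csf1r and Cd79a limits whatever their co-receptor, they were 19.5% (17.6 to 21.6) of 1542 cells and 42.6% (37.1 to 48.2) of 324. Of the same 1542 and 324 cells, members included, the other classes were CD4 in 38.7% and 28.1%, CD8 in 37.6% and 22.8%, CD4 and CD8 in 3.83% and 1.85%, and Foxp3 in 0.454% and 4.63%, in Runx3_fl and Runx3 respectively.

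**Figure D1:**
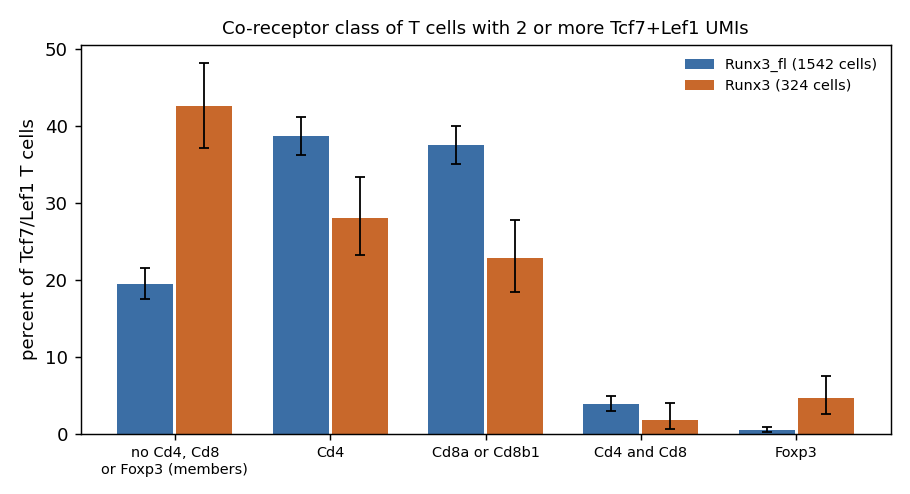
Percent of Tcf7/Lef1 T cells (vertical axis) in each co-receptor class, for 1542 cells of Runx3_fl (blue) and 324 cells of Runx3 (orange), with exact 95% binomial intervals that cover counting error only. The cells with no co-receptor UMI reach 42.6% in Runx3 and 19.5% in Runx3_fl.

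The larger share in Runx3 moved with depth. Median UMIs of Tcf7/Lef1 T cells were 13729.5 in Runx3_fl and 7694.5 in Runx3, and median UMIs of the member cells were 8967 and 6914.5. In Runx3_fl the member share was smaller in deeper cells: 69.7% of Tcf7/Lef1 T cells under 5000 UMIs, 39.6% between 5000 and 10000, 14.3% between 10000 and 20000 and 3.40% from 20000. The shares in Runx3 were 57.1%, 41.3%, 37.0% and 15.4% in the same depth bins. In cells of 3000 to 10000 UMIs the libraries were at 41.2% (181 of 439) and 43.8% (95 of 217), a smaller gap than that over all cells. That near-equal share includes the NK-receptor cells described below: among Tcf7/Lef1 T cells with no NK receptor UMI the members were 11.9% (10.1 to 13.8) in Runx3_fl and 40.8% (35.2 to 46.7) in Runx3, and 24.8% against 38.1% between 5000 and 10000 UMIs and 7.26% against 35.2% between 10000 and 20000. Between 10000 and 20000 UMIs the shares were 14.3% (11.8 to 17.1) and 37.0% (26.6 to 48.5), so the libraries stood apart in that bin.

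A Cd4 UMI is easily missed. Regulatory T cells, which carry CD4, give a measure: 9 of 28 Foxp3 cells of Runx3_fl and 12 of 41 of Runx3 had no Cd4 UMI, or 32.1% and 29.3%. After thinning each cell to 2000 UMIs the shares were 74.1% and 72.5%. Among CD4 cells with Tcf7 and Lef1, 22.2% in Runx3_fl and 50.5% in Runx3 were in that class through exactly 1 Cd4 UMI. Absence of a co-receptor UMI is therefore not absence of the protein, and how many member cells are CD4 or CD8 cells with a missed UMI was not tested.

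The rule itself fixed the levels of Tcf7 and Lef1, which are described here without further reading. Tcf7 was at 166 CPM (152 to 181) in the members of Runx3_fl and 368 CPM (333 to 406) in those of Runx3, and Lef1 at 375 (353 to 397) and 810 (757 to 865). Both genes were seen in 34.2% and 65.2% of the cells. At the threshold, 98 members of Runx3_fl and 26 of Runx3 had exactly 2 Tcf7 and Lef1 UMIs, and 154 and 29 cells fell just outside with exactly 1. A single CD3 UMI admitted 109 and 17 members.

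Most member cells had RNA of the alpha-beta T cell receptor constant regions, but so did most NK cells, and in Runx3_fl a large part of the members also had NK receptor genes. A UMI of Trac, Trbc1 or Trbc2, the constant regions of the alpha-beta receptor, was found in 93.7% (90.3 to 96.2) of the member cells of Runx3_fl and in 94.2% (88.9 to 97.5) of those of Runx3. The same genes had a UMI in 21.4% and 6.67% of B cells, which should lack them and whose median depths were 18954 and 6331 UMIs. They had one in 85.3% and 85.1% of cells with at least 2 Ncr1 and Klrb1c UMIs and no CD3 or co-receptor UMI, called NK-receptor cells here. After thinning to 2000 UMIs the member shares were 65.9% and 81.2% and those of the NK-receptor cells 47.3% and 45.6%, so this readout does not separate T from NK cells. Trac alone had a UMI in 51.5% and 70.3% of members and in 16.2% and 14.9% of NK-receptor cells. A UMI of a gamma-delta constant gene was found in 18.6% and 12.3% of members, and in 1.99% and 0.725% without an alpha-beta one. The level of Trac was 188 CPM (173 to 205) in Runx3_fl and 222 (195 to 252) in Runx3, and that of Trbc2 404 (382 to 427) and 511 (469 to 555), with the reserve that Trbc1 and Trbc2 are near-identical copies. Rag1, Rag2 and Dntt, which rearrange receptor genes in immature thymocytes, were at 0 in both libraries.

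A UMI of the NK receptor genes Ncr1, Klrb1c, Klra4, Klra7 or Klra8, a list taken up after the data had been seen, was present in 156 of 301 members of Runx3_fl, or 51.8% (46.0 to 57.6), and in 18 of 138 of Runx3, or 13.0% (7.92 to 19.8). B cells showed such a UMI in 6.73% and 1.28%, and CD4 cells with Tcf7 and Lef1 in 12.4% and 6.59%. With every cell thinned to 2000 UMIs the member shares were 41.1% and 9.02%. The name T cell therefore holds for part of the members of Runx3_fl, and all of them are called members here, after the rule. The Klra genes are a family of near-identical copies, so the counts of single members of it are uncertain.

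**Figure D2:**
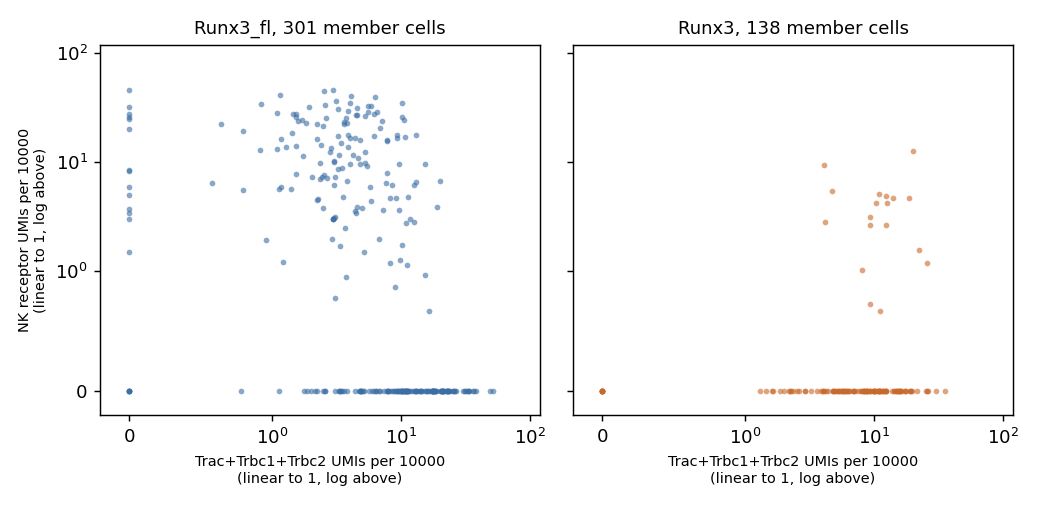
Each point is 1 member cell: UMIs of Trac, Trbc1 and Trbc2 per 10000 UMIs (horizontal) against UMIs of the 5 NK receptor genes per 10000 (vertical), on axes that are linear to 1 and logarithmic above, for 301 cells of Runx3_fl (left) and 138 of Runx3 (right). In Runx3_fl 156 cells lie above 0 on the vertical axis, and in Runx3 18 do.

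In Runx3_fl the member cells with an NK receptor UMI had high levels of cytotoxic genes and less T cell receptor RNA than the other members. Gzma, the gene of granzyme A, was at 4101 CPM in them, 355 in members without an NK receptor UMI and 5917 in NK-receptor cells. Eomes, a transcription factor of NK and memory CD8 cells, was at 232, 20.4 and 284 CPM, and Prf1, perforin, at 339, 16.3 and 608. Xcl1, a chemokine that draws dendritic cells, was at 777, 58.5 and 575 CPM. For each of these genes the NK-receptor members stood far above the other members and near the cells without CD3.

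T cell genes ran the other way in the same cells. Trac was at 57.6 CPM (46.2 to 70.8) in NK-receptor members, 326 (297 to 357) in the other members and 23.7 (21.1 to 26.5) in NK-receptor cells without CD3. Bcl11b, a factor needed for T cell commitment, was at 27.2, 259 and 4.28 CPM. An alpha-beta constant UMI was present in 91.0% of the NK-receptor members and 96.6% of the other members. The median of Trbc1 and Trbc2 UMIs together was 3 and 9 in these cells. Of the NK-receptor members, 116 of 156 had no Trac UMI. Seen from the other side, 101 of 1943 cells with at least 2 Ncr1 and Klrb1c UMIs met the member rule.

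Over all genes the NK-receptor members were close to the NK-receptor cells without CD3. Of 3464 genes past the filter 21 were higher (0.606%) and 4 lower (0.115%), and the highest were Adk, an adenosine kinase, Camk4, a calcium-dependent kinase, Il1b and Ikzf2, with 48.2% of the Il1b UMIs of all Runx3_fl members in 1 cell. Pearson's r across genes of the log2 levels was 0.979 (3472 genes), against 0.785 (3860 genes) with T cells lacking Tcf7 and Lef1 UMIs. For members without an NK receptor UMI the order was reversed: r was 0.760 with the NK-receptor cells and 0.955 with those T cells. These are descriptions across genes of 1 library, and all classes share its free RNA.

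Between the 2 kinds of member in Runx3_fl, 241 of 3853 genes were higher (6.25%) and 281 lower (7.29%) in the cells with an NK receptor UMI. The effector and cytotoxic list had 9 of 13 tested genes higher and 0 lower, among them Gzma, Xcl1, Prf1 and Ccl5. The costimulatory and inhibitory receptors had 6 of 9 lower, among them Ctla4, Icos, Havcr2 and Tnfrsf4, and 1 higher, Tnfrsf9, while 5 of 6 cell cycle genes were lower. The naive and central memory list was split, with Bcl2, Bach2, Txk and Foxp1 among the higher genes and Ccr7, S1pr1 and Slamf6 lower. Runx3 was at 834 CPM in the NK-receptor members, 278 in the others and 842 in the NK-receptor cells.

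Ikzf2 was concentrated in a minority of member cells of both libraries. It was at 840 CPM (808 to 873) in Runx3_fl and 1742 CPM (1664 to 1822) in Runx3, with a UMI in 46.2% and 32.6% of cells. Cells with 5 or more Ikzf2 UMIs, a limit chosen after seeing the data, were 83 of 301 and 34 of 138 members, and held 95.3% and 98.5% of the Ikzf2 UMIs. A single cell held 17.9% of those of Runx3, and 5.21% in Runx3_fl. Ikzf2 lies on chromosome 1 (mm10, 69531214 to 69687245, minus strand), and the counted gene Gm28112 lies within it on the same strand, so reads of the pair can be confused.

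In Runx3 the Ikzf2-rich members had more RNA of cytotoxic genes and less of 4 naive genes than the rest of the members. Of 3929 genes 343 were higher (8.73%) and 259 lower (6.59%), Ikzf2, which made the split, being left out. The effector and cytotoxic list had 9 of 13 genes higher and 1 lower: Ccl5, a chemokine of effector and memory T cells, was at 1125 CPM (1018 to 1240) against 281 (244 to 323), Xcl1 at 175 (135 to 225) against 15.2 (7.57 to 27.1) and Nkg7 at 265 (214 to 323) against 59.3 (42.9 to 79.9). A single cell held 39.2% and 5 cells 78.4% of the Xcl1 UMIs of the Runx3 members. Other genes high in them were Cd160, an activating receptor of intraepithelial and NK lymphocytes, at 75.2 (49.6 to 109) against 2.76 CPM (0.334 to 9.96), and Cd7 at 103 (72.6 to 142) against 5.51 (1.502 to 14.1). Every one of the 34 Ikzf2-rich cells had an alpha-beta constant UMI, as did 92.3% of the others, and an NK receptor UMI was found in 38.2% against 4.81%.

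Of the naive and central memory list 4 of 13 tested genes were lower in the Ikzf2-rich members of Runx3, namely Ccr7, Klf2, Igfbp4 and Il6ra, 0 were higher and 9 did not pass. Ccr7, the receptor that guides naive cells to lymph nodes, was at 41.8 CPM (23.4 to 68.9) in the Ikzf2-rich and 419 (373 to 469) in the Ikzf2-poor cells, Klf2, which maintains S1pr1, at 162 (123 to 209) against 474 (425 to 527), and Igfbp4 at 8.35 (1.72 to 24.4) against 141 (115 to 171). A single cell held 23.8% and 5 cells 52.7% of the Ccr7 UMIs of the Runx3 members. Bcl11b was at 109 (77.2 to 149) against 412 (367 to 462). The Ikzf2-rich cells were the deeper ones, with a median of 9719.5 against 6559 UMIs.

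In Runx3_fl the same split gave fewer differences. Of 3699 genes 33 were higher (0.892%) and 34 lower (0.919%) in the Ikzf2-rich members. Xcl1 was at 356 CPM (318 to 397) in the Ikzf2-rich and 457 (428 to 486) in the Ikzf2-poor cells, and Ccr7 at 53.9 (39.7 to 71.4) against 89.4 (77.2 to 103). An NK receptor UMI was found in 47.0% and 53.7% of them. The difference of the split between the libraries was not tested.

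**Figure D3:**
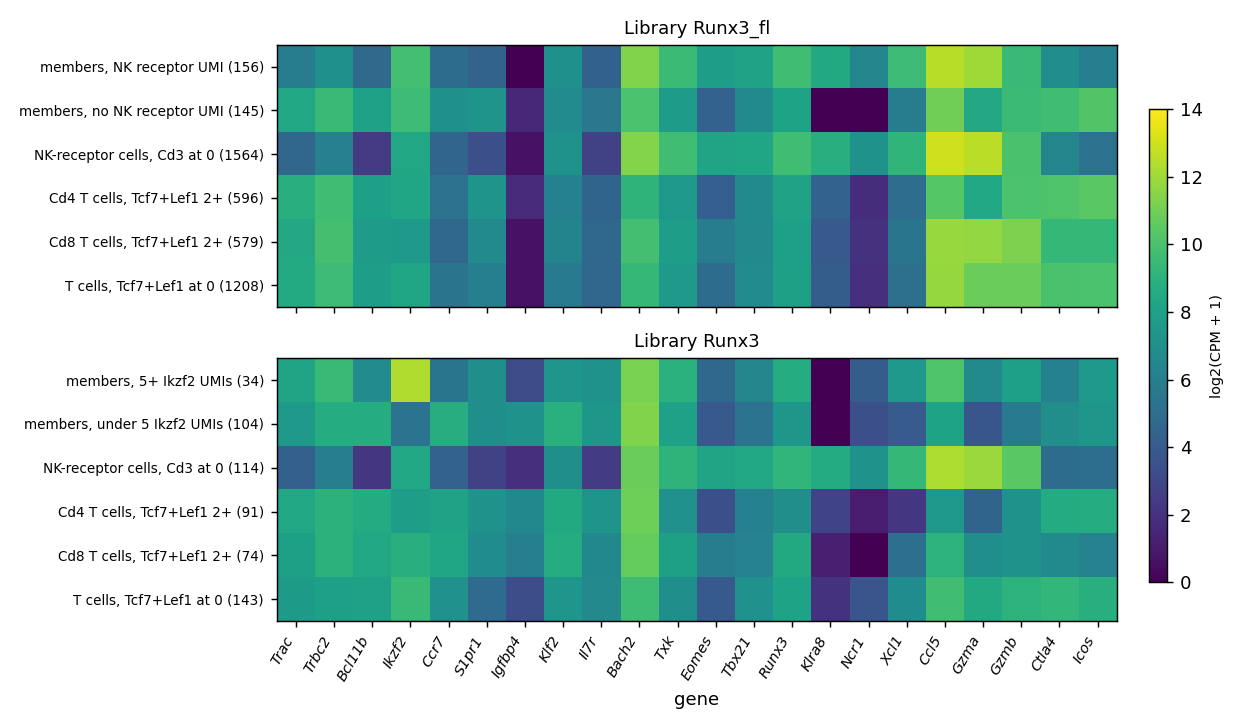
Levels of genes, as log2 of CPM + 1 in colour (0 to 14), in cell classes of Runx3_fl (upper panel) and Runx3 (lower panel), with the number of cells in parentheses. In Runx3_fl the member cells with an NK receptor UMI resemble NK-receptor cells without CD3 from Eomes to Gzma, and in Runx3 the cells with under 5 Ikzf2 UMIs resemble CD4 and CD8 cells with Tcf7 and Lef1 from Ccr7 to Bach2. Klra8 and Ncr1 helped to select the NK-receptor members, and Ncr1 also the NK-receptor cells, so their levels there are no finding.

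Against T cells with at least 2 CD3 UMIs and no Tcf7 or Lef1 UMI (1208 cells of Runx3_fl and 143 of Runx3), the member cells had higher levels of naive and memory genes in both libraries. In Runx3_fl 126 of 3795 genes were higher (3.32%) and 71 lower (1.87%), and in Runx3 199 of 3988 were higher (4.99%) and 501 lower (12.6%). The comparison cells may carry Cd4, Cd8 or Foxp3, so this contrast is not only one of Tcf7 and Lef1. The naive and central memory list had 5 of 9 tested genes higher in Runx3_fl, with a median log2 ratio of 1.09 against 0.02 for all genes, and 9 of 13 in Runx3, with 1.31 against 0.10; none of the list was lower in either.

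Bach2, Bcl2, Klf2 and Txk of that list passed 1 log2 unit in both libraries. Bach2, a repressor of effector programmes, was at 1828 CPM in members and 632 in comparison cells of Runx3_fl, and at 2537 and 798 in Runx3, log2 ratios of 1.53 (1.49 to 1.58) and 1.67 (1.57 to 1.77). Bcl2, the survival factor, was at 296 against 64.6 CPM and 279 against 112, ratios of 2.18 (2.06 to 2.33) and 1.31 (1.05 to 1.60). Klf2 was at 117 against 54.8 CPM and 371 against 165, with lower limits of 0.92 and 0.94 on ratios of 1.09 and 1.17, and Txk, a Tec kinase, had ratios of 1.43 and 1.42. With comparison cells also at 0 for Cd4, Cd8, Foxp3, Csf1r and Cd79a, none of the 4 passed in both libraries. Bach2, Bcl2, Klf2 and Txk then had ratios of 0.59, 1.18, 0.71 and 0.59 in Runx3_fl. In Runx3 they had 2.09, 0.0047, 0.90 and 0.77. Without the NK-receptor members, and against all comparison cells, none of these 4 genes reached 1 log2 unit in Runx3_fl. The ratios were 0.74 for Bach2, 0.67 for Bcl2, 0.93 for Klf2 and 0.21 for Txk. Ccr7 (1.64) and S1pr1 (1.23) then did reach it, but 1 cell held 22.3% and 5 cells 52.9% of the Ccr7 UMIs of all Runx3_fl members.

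Other naive genes separated the classes in 1 library. Igfbp4 was at 96.8 against 8.80 CPM in Runx3 (3.32, 2.65 to 4.38) and had 3 and 10 UMIs in Runx3_fl. S1pr1, the exit receptor for lymph and blood, was at 125 against 28.3 CPM in Runx3 (2.11, 1.65 to 2.67) and 85.2 against 64.5 in Runx3_fl (0.40, 0.20 to 0.60).

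Checkpoint and costimulatory receptors were lower in the members than in these comparison cells, which unlike the members may carry Foxp3. In Runx3_fl 3 of 10 tested were lower and in Runx3 8 of 9, with 0 higher in either. Ctla4, an inhibitory receptor, was at 466 against 996 CPM in Runx3_fl (-1.09, -1.18 to -1.02) and 102 against 618 in Runx3 (-2.58, -2.89 to -2.31). Havcr2, the gene of TIM-3, was at 73.3 against 237 and at 4.61 against 116 CPM, and Icos, which passed in Runx3, at 603 against 1063 and 174 against 434. Il10 was at 14.6 against 58.0 and 14.8 against 343 CPM. Without the NK-receptor members Ctla4 of Runx3_fl was at 835 CPM, a ratio of -0.25 (-0.34 to -0.17), and 1 of 10 receptors, Havcr2, was lower. With comparison cells also at 0 for Cd4, Cd8, Foxp3, Csf1r and Cd79a, the Runx3_fl ratios did not reach 1 log2 unit. They were -0.64 for Ctla4, -0.77 for Havcr2, -0.65 for Il10 and -0.66 for Tnfrsf4. In Runx3, with 36 such cells, they were -1.4, -3.285, -2.69 and 0.88.

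Among 26 tested T lineage transcription factors, 6 were higher and 0 lower in Runx3_fl, and 7 were higher and 3 lower in Runx3. Ikzf2, Bach2, Klf2 and Bcl6, the last the factor of follicular helper and memory cells, were higher in both, but among cells of 3000 to 10000 UMIs the Ikzf2 ratio of Runx3 was -0.071 in place of 1.31. Eomes (129 against 30.3 CPM) and Runx3 (563 against 244) were higher in Runx3_fl, where without the NK-receptor members they were at 20.4 and 278 CPM, and at 17.5 against 14.5 and 247 against 280 in Runx3. Maf, Prdm1 and Tbx21, factors of effector and IL-10-producing cells, were lower in Runx3, with Prdm1 at 22.1 against 94.9 CPM (-2.05, -2.79 to -1.47). Zbtb16, the gene of the innate-like factor PLZF, was among the higher genes of Runx3 at 112.5 against 52.2 CPM, but 1 cell held 43.4% and 5 cells 87.7% of its member UMIs.

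The beta-catenin and Wnt list, the partners and targets of TCF-1 and LEF-1, hardly differed. In Runx3_fl 0 of 8 tested genes passed 1 log2 unit. In Runx3 1 of 9 was higher and 1 lower: Tle4, a Groucho co-repressor, was at 547 against 228 CPM (1.26, 1.07 to 1.46), and Tcf7l2, another TCF gene, at 35.0 against 81.1 (-1.19, -1.77 to -0.68). TCR signalling genes passed in 1 of 17 cases in Runx3_fl, Themis being lower, and in 3 of 17 in Runx3, where Skap1 and Ubash3a were among the higher genes.

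Of 3385 genes past the filter in both libraries, 24 were higher in the members of both, which is 24.7% of the 97 such genes of Runx3_fl and 17.9% of the 134 of Runx3. They included Aff3, a nuclear scaffold protein gene, at 214 against 29.0 CPM in Runx3_fl and 533 against 133 in Runx3, Fgf13, an intracellular FGF homologue, at 146 against 31.3 and 396 against 25.1, and the zinc finger genes Zbtb20 (686 against 94.2 and 660 against 289) and Zbtb10 (93.5 against 8.07 and 139 against 53.4). Without the NK-receptor members 5 of the 24 passed in both libraries, namely Aff3, Fgf13, Ssbp2, Zbtb10 and Zbtb20. After thinning each cell to 2000 UMIs 15 of the 24 passed in both, and in Runx3 Zbtb20 was at 0.97 and Zbtb10 at 0.45 log2 units. Against comparison cells that also had no Cd4, Cd8, Foxp3, Csf1r or Cd79a UMI, 2 did, Aff3 and Nedd4l.

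Genes of other cell types moved with this contrast. In Runx3 10 of 10 tested myeloid genes were lower in members, S100a8 being at 119 against 6065 CPM, and the 12 genes of the list summed to 567 CPM (523 to 614) against 13406 (13227 to 13587), with none at 0. In Runx3_fl the list summed to 1201 CPM (1163 to 1241) against 779 (765 to 793), and to 282 (256 to 311) in members without an NK receptor UMI. Most of the member sum came from Tyrobp (1893 UMIs) and Fcer1g (1323 UMIs), which NK cells also express, with 64 UMIs from Lyz2. Tyrobp and Fcer1g were higher in those members (1.98 and 1.39), and Lyz2 and Cd14 lower (-3.28 and -2.51). The larger sum is therefore not a measure of myeloid RNA. B and plasma cell genes summed to 329 against 2705 CPM in Runx3_fl, with Ms4a1 among the genes at 0 in members, and to 2919 against 9644 in Runx3, with none at 0. Csf1r and Cd79a were at 0 in members by rule and could take any value in comparison cells. Without cells holding UMIs of other lineages, S100a8 of Runx3 had a ratio of 0.48 in place of -5.66 and Lyz2 1.38 in place of -3.39. Both genes are among those whose UMIs marked a cell for removal, so this change follows from the removal and is no finding. The part of other cell types in the remaining ratios was not tested. A single cell held 58.1% of the Igkc and 83.6% of the Ebf1 UMIs of the Runx3 members.

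The 10 genes with the largest ratios upward in Runx3 were Fgf13, Nsg2, Igfbp4, Patj, Bend4, Apol7e, Atp1b1, Scml4, Myo10 and Neto2, with log2 ratios from 3.92 to 2.26. Nsg2, which encodes a small endosomal membrane protein, was at 61.8 against 5.03 CPM, and Bend4 at 115 against 13.8. The 10 downward included the neutrophil granule genes Ltf (11.1 against 708 CPM), Camp (23.1 against 1116), Lcn2 (17.5 against 818) and Ngp (34.1 against 1483), beside S100a8 and S100a9. Nckap5 had 1 UMI in the members, at 0.922 against 195 CPM. The other 3 downward were Sash1, Anxa1 and Ifitm6. Neutrophil genes thus made up most of the largest downward ratios, in the comparison cells and not in the members.

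Leaving out the NK-receptor members left few differences in Runx3_fl. Of 3784 genes 19 were higher (0.502%) and 43 lower (1.14%), the highest being Patj, a polarity scaffold, at 56.5 against 9.34 CPM, Aff3 at 144 against 29.0, Tbc1d4, a Rab GTPase-activating protein, at 147 against 46.0 and Ccr7 at 131 against 41.1. Among all Runx3_fl members 1 cell held 22.3% of the Ccr7 UMIs and 1 cell 27.85% of those of Tbc1d4. In Runx3 the counts stayed near the main ones, at 218 higher (5.4%) and 541 lower (13.4%) of 4034 genes. There Patj was also among the highest, at 519 against 51.5 CPM. With comparison cells at 0 for Cd4, Cd8, Foxp3, Csf1r and Cd79a, 23 genes were higher and 9 lower in Runx3_fl, and 410 were higher in Runx3, where only 36 such cells remained.

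Against all conventional CD4 cells (1267 in Runx3_fl and 115 in Runx3), CD8 cells (1274 and 107) and Foxp3 cells (28 and 41), whatever their Tcf7 and Lef1, the members differed in more genes from Foxp3 cells than from CD4 or CD8 cells. Of the genes tested in Runx3_fl, 212 of 3876 were higher than in CD4 cells (5.47%) and 127 lower (3.28%), 216 of 3837 higher than in CD8 cells (5.63%) and 122 lower (3.18%), and 320 of 3912 higher than in Foxp3 cells (8.18%) and 338 lower (8.64%). The same counts in Runx3 were 65 (1.72%) and 81 (2.14%) of 3785, 92 (2.48%) and 64 (1.72%) of 3716, and 288 (7.14%) and 494 (12.2%) of 4036. The Foxp3 class is small and its levels rest on few cells.

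Ikzf2, which regulatory T cells express, was at 2596 CPM (2410 to 2791) in the Foxp3 cells of Runx3_fl and 1862 (1737 to 1995) in those of Runx3, above the members in Runx3_fl and close to them in Runx3. In CD4 cells it was at 341 and 298 CPM, and in CD8 cells at 199 and 577. Ctla4, which regulatory T cells also carry, was at 2460 (2280 to 2651) and 1533 (1419 to 1654) CPM in Foxp3 cells, against 466 (442 to 491) and 102 (84.2 to 123) in members. Of the costimulatory and inhibitory receptors 12 of 13 and 11 of 12 were lower in members than in Foxp3 cells, with Il2ra, the IL-2 receptor alpha chain, at 162 against 725 and 74.7 against 283 CPM. Per cell the Foxp3 cells had a median of 16.5 and 9 Ikzf2 UMIs, and the members of both libraries a median of 0.

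Against CD8 cells the effector list went in different directions in the libraries, with 5 of 14 genes higher and 2 lower in Runx3_fl and 0 higher and 7 of 12 lower in Runx3. Against CD4 cells it had 7 of 13 higher in Runx3_fl and 6 of 9 in Runx3, with 0 lower in either. The NK list had 9 of 9 genes higher than in CD4 and 8 of 9 higher than in CD8 cells in Runx3_fl. Whether the libraries differ in these directions was not tested.

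The members of Runx3 were also set beside CD4 and CD8 cells with at least 2 Tcf7 and Lef1 UMIs, for the naive and central memory list. Against CD4 cells 1 of 14 was higher (Txk) and 2 lower (Slamf6 and Il6ra), beside 2.05% and 2.13% of all genes. Against CD8 cells 0 of 13 passed either way, beside 2.89% of all genes higher and 1.71% lower. Ccr7 was at 294 CPM (263 to 328) in the members, 264 (230 to 301) in CD4 and 306 (267 to 349) in CD8 cells, and Klf2 at 371 (335 to 409), 368 (328 to 411) and 404 (360 to 453). Igfbp4 was at 96.8 (79.2 to 117), 93.2 (73.6 to 116) and 65.6 (48.3 to 86.9). The intervals overlapped for each of these genes.

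The members of Runx3 differed from the CD4 cells in 159 of 3807 genes, 78 higher (2.05%) and 81 lower (2.13%). Ikzf2 was at 1742 against 225 CPM, Ccl5 at 561 against 173 and Xcl1 at 68.2 against 3.58, the last from 3 UMIs in the CD4 cells (3.92, 2.65 to 6.56) and with 39.2% of the member UMIs in 1 cell, and 6 of 9 effector genes were higher. Tnfsf8, the gene of CD30 ligand (26.7 against 325 CPM), Btla (25.8 against 137) and Ctla4 (102 against 395) were lower. Against CD8 cells 108 of 3735 genes were higher (2.89%) and 64 lower (1.71%), with Eomes at 17.5 against 60.1 CPM and Trat1, a T cell receptor adaptor, at 76.5 against 6.83. In Runx3_fl the members without an NK receptor UMI differed from CD4 cells with Tcf7 and Lef1 in 50 genes higher (1.31%) and 9 lower (0.235%) of 3828.

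Between the libraries, 263 of 3855 genes were higher (6.82%) and 359 lower (9.31%) in the members of Runx3 than in those of Runx3_fl. Cytotoxic genes were lower: 13 of 14 tested effector genes and 9 of 9 NK genes. Gzma was at 2276 CPM (2223 to 2331) in Runx3_fl and 42.4 (31.1 to 56.6) in Runx3, a log2 ratio of -5.71 (-6.20 to -5.33), and 1 cell held 60.9% of its UMIs in Runx3. Ccl5 was at 4002 (3931 to 4074) and 561 (517 to 607) CPM, and Eomes at 129 (117 to 143) and 17.5 (10.6 to 27.4). Klra4 and Klra8 had no UMI in the members of Runx3 and were at least 78.3-fold and 68.1-fold lower, taking 3 counts over the class as the limit. The transcription factor Runx3 was at 563 (536 to 590) and 247 (218 to 279) CPM.

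Naive genes were higher in Runx3, in 6 of 13 tested with 0 lower. Igfbp4 had 3 UMIs in the members of Runx3_fl and 105 in those of Runx3 (5.62, 5.02 to 8.91). Ccr7 was at 78.9 (69.2 to 89.6) and 294 (263 to 328) CPM, a ratio of 1.89 (1.65 to 2.15), and Klf2 at 117 (106 to 130) and 371 (335 to 409). Il7r, the receptor for the survival cytokine IL-7, was at 32.2 (26.1 to 39.2) and 160 (138 to 186). Satb1 and Bach2 differed by less than 1 log2 unit. In the members of Runx3_fl and Runx3, 1 cell held 22.3% and 23.8% of the Ccr7 UMIs, and 5 cells held 52.9% and 52.7%.

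The 10 genes with the largest ratios upward were Igfbp4, S100a8, Hspa1b, Ebf1, Hspa1a, Rapgef4, Apoe, St6gal1, Ifngr2 and Igkc. S100a8, a neutrophil gene, was at 119 against 1.99 CPM, and Ebf1 and Igkc, genes of B cells, at 107 against 3.65 and 2595 against 238, with the single cells given above behind most of the Ebf1 and Igkc UMIs of Runx3. Downward they were Xist, Klra4, Klra8, Eya1, Klri2, Gzma, Adamts14, Dhrs3, Klrb1b and Pclaf. Xist was at 238 CPM in the members of Runx3_fl and had no UMI in those of Runx3, at least 86.2-fold lower. UMIs of other lineages, at least 2 in a cell, were present in 12.6% of the members of Runx3_fl and 55.1% of those of Runx3, and their part in these ratios was not tested beyond the removal of such cells, which left 401 genes higher in place of 263. Genes of NK receptors (Klra4, Klra8, Klri2 and Klrb1b) made up 4 of the 10.

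**Figure D4:**
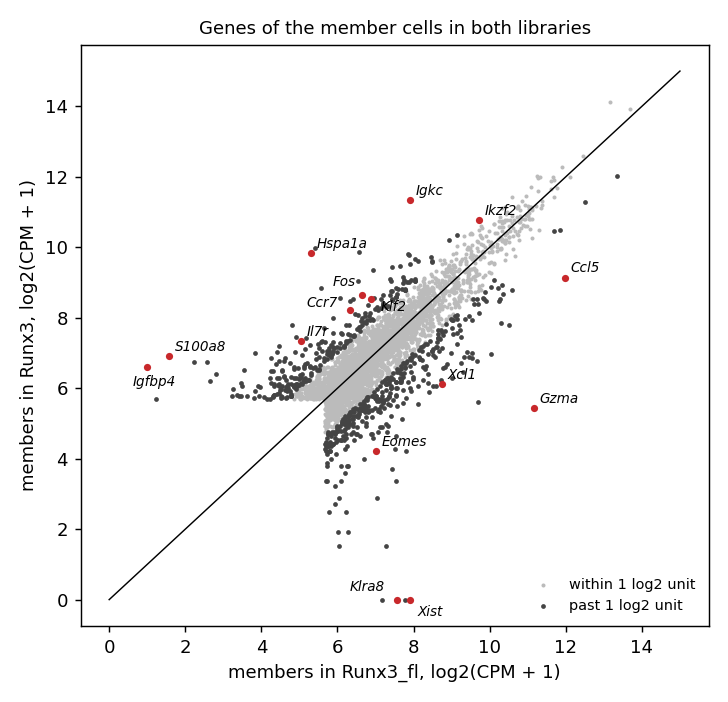
Each point is a gene past the filter in the member cells, with log2 of CPM + 1 in Runx3_fl (horizontal) against Runx3 (vertical), grey within 1 log2 unit and dark beyond it; red points are the labelled genes and the line marks equal levels. Igfbp4, Hspa1a, Il7r and Ccr7 lie above the line and Gzma, Ccl5, Xcl1 and Eomes below it, with Klra8 and Xist at 0 in Runx3.

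Without the NK-receptor members the libraries still differed, in 344 of 4002 genes higher (8.6%) and 512 lower (12.8%). The naive list then had 9 of 14 higher, with Ccr7 at 343 against 131. Gzma was at 9.12 against 355 and Gzmb, granzyme B, at 50.2 against 745. Runx3 was at 218 against 278 CPM, a ratio of -0.35 (-0.61 to -0.10) that no longer reached 1 log2 unit, and Ikzf2 at 1194 against 762. TCR signalling genes were lower in 8 of 18 cases and higher in 1, Themis being at 287 against 1362 CPM. The study's macrophage genes Nr4a1, an immediate early nuclear receptor, and Zfp36, which promotes decay of cytokine mRNAs, were at 533 against 236 and 700 against 183. Genes of the study's list were also higher in other classes. In CD4 cells 1 of 3 was higher and 1 lower, in CD8 cells 1 of 3 was higher and in B cells 2 of 3. The shares of all genes higher were 11.4%, 10.4% and 19.3%. In NK-receptor cells and in T cells without Tcf7 and Lef1 1 of 4 was higher, beside 1.76% and 12.8%.

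Stress and immediate early genes were also higher in Runx3, in 9 of 18 with 0 lower. Hspa1a, a heat shock protein gene that shares reads with Hspa1b, was at 914 (858 to 973) against 38.8 (32.1 to 46.5) CPM, and Fos at 398 (362 to 438) against 98.2 (87.3 to 110). Of 9 interferon response genes 5 were higher, with Irf7 at 115 (95.9 to 137) against 23.5 (18.4 to 29.7). Cell cycle genes were lower in 4 of 5, with Top2a at 25.8 (17.2 to 37.3) against 157 (143 to 172). Checkpoint and costimulatory receptors were lower in 7 of 9.

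These differences were not all particular to the members. Hspa1a was higher in Runx3 by 3.23 to 4.69 log2 units in every class examined, B cells (500 against 52.2 CPM) and NK-receptor cells (430 against 28.3) included. The naive list had 9 of 14 genes higher in CD4 and 9 of 14 in CD8 cells, where 11.4% and 10.4% of all genes were higher. It had 7 of 11 higher and 2 lower in B cells, where 19.3% of all genes were higher and 18.1% lower, and 5 of 11 higher and 1 lower in T cells without Tcf7 and Lef1, where 12.8% were higher and 7.43% lower. In NK-receptor cells it had 0 of 7, where 1.76% were. Ccr7 was at 249 against 37.0 CPM in CD4 cells, 261 against 24.7 in CD8 cells and 20.3 against 23.1 in NK-receptor cells. Effector genes were lower in 9 of 9 cases in CD4 and 8 of 15 in CD8 cells, where 2 were higher, and in 0 of 14 in NK-receptor cells, beside 11.7%, 13.5% and 0.475% of all genes lower in these classes. In the NK-receptor cells Gzma was at 3751 against 5917 CPM. Interferon response genes were higher in 8 of 10 cases in CD4, 5 of 7 in CD8 and 3 of 6 in NK-receptor cells. Cell cycle genes were lower in 6 of 7 cases in CD4 and 7 of 8 in CD8 cells. In NK-receptor cells 0 of 4 were lower and 1 was higher. Checkpoint and costimulatory receptors were lower in 6 of 10, 6 of 8 and 1 of 5 cases in these 3 classes, beside the shares of all genes given above. In bulk over a class, fewer cells of a type and less RNA per cell cannot be told apart, and the classes differ in depth.

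**Figure D5:**
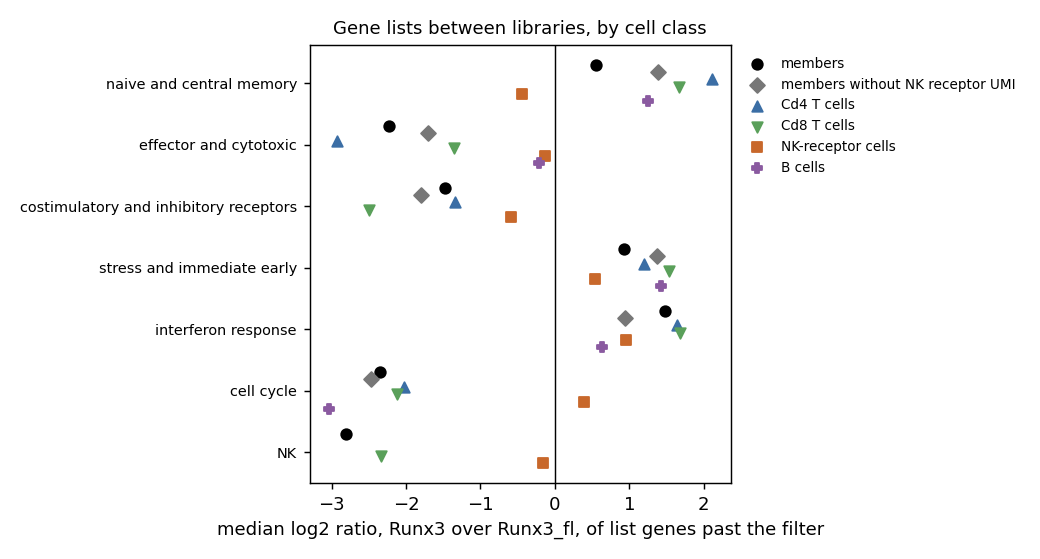
Median log2 ratio of Runx3 over Runx3_fl (horizontal) for the genes of 7 lists that passed the filter, in the member cells and in 5 other classes marked by symbol, with a line at 0. The naive list lies right of 0 in members, CD4 and CD8 cells (0.55, 2.11 and 1.67) and also in B cells (1.25), and left in NK-receptor cells (-0.44), and the stress list lies right of 0 in all classes drawn.

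Itgam, which encodes CD11b and on which the labels say the cells were selected, was at 60.02 CPM in the members of Runx3_fl, with a UMI in 30.9% of cells, and at 5.53 CPM in those of Runx3, in 4.35%. In Runx3_fl it was at 94.4 CPM in NK-receptor members, 23.8 in the others and 147 in the NK-receptor cells without CD3. The members of Runx3 thus had Itgam RNA in few cells, and how they came through the gate was not tested.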

How the data were processed

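Droplet single-cell RNA libraries (10x Genomics 3′ v3, sequenced on a Novaseq 6000) were deposited by the authors as filtered matrices of raw UMI counts per gene and cell, made with cellranger 7.1.0 against mm10 per the file headers and the submitters' processing notes, which also name Seurat 4. Whether intronic reads were counted is not given in the sources used here. Cells with 200 to 6000 genes and at most 15% mitochondrial UMIs were kept, the limits of the study. No doublet caller was run; the upper gene limit and the rule's zero counts were the only steps against doublets.

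UMI counts were summed over each class of cells and library and divided by their total (CPM). Log2 ratios used CPM + 1. Thinning drew 2000 UMIs from each cell without replacement and left out shallower cells. Exact Poisson and Clopper-Pearson intervals (95%) and the limit of 3 counts for a count of 0 cover counting error only. With 1 library per group no test was run. The ratio code and the CPM filter were tested on simulated counts, and the thinning on the deposited counts. The interval code was not tested in this way. Gene positions were taken from GENCODE M21 (32235 of 32285 gene IDs matched).

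The members and the gene lists were chosen with earlier results of these data known. Genes were named by list membership or as the 10 largest ratios each way in Runx3 and between libraries. The NK receptor split, the Ikzf2 split, the depth bins, the analysis without Xist cells and the leading genes of the remaining contrasts were chosen after seeing the data. Intervals came from scipy 1.17.1, sums from numpy 2.4.6, tables from pandas 2.3.3 and plots from matplotlib 3.10.9, all under Python 3.11.15.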

Additional observations from a re-analysis of the deposited data

Results flagged for a closer look

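Fcer1g and Tyrobp, which encode the signalling adaptors FcR gamma and DAP12 of myeloid and NK cells, stood on opposite sides in the libraries, and the difference between the libraries was not tested. The log2 ratio of members over T cells without Tcf7 and Lef1 UMIs was 1.39 for Fcer1g in Runx3_fl and -2.62 in Runx3, and 1.98 for Tyrobp in Runx3_fl and -2.43 in Runx3. Tyrobp was at 628 CPM in members and 158 in comparison cells of Runx3_fl, and at 86.7 and 472 in Runx3. Within the members of Runx3_fl it was at 1132 CPM in cells with an NK receptor UMI and 96.6 in the others, and Fcer1g at 766 and 93.9. Among the comparison cells of Runx3, S100a8 was at 6065 CPM, against 119 in the members. What these levels of other cell types contribute to the opposite signs was not tested.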

How the results depend on the processing

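No paired analysis was possible because each group is 1 library. Of 1210 ratios of named genes under an alternative, 1086 kept their side of 1 log2 unit, with the sign not followed for ratios under it. A further 59 no longer reached it and 52 newly did in the same direction. Of the ratios that had reached it 9 changed sign, and 4 newly reached it with the opposite sign. Of 112 counts and shares, 81 moved little and 31 moved. The share of members in kept cells of Runx3_fl (2.53%) was 3.83% with at least 1 Tcf7 or Lef1 UMI, 1.71% with at least 3, 1.62% with at least 2 CD3 UMIs, 1.75% with the rule applied after thinning, 3.85% without cells holding UMIs of other lineages and 1.22% without NK-receptor members. In Runx3 (1.69%) it was 2.05%, 1.37% and 4.24% with at least 1, at least 3 and no other-lineage cells.

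Against T cells without Tcf7 and Lef1, a 10 CPM filter with no minimum share of cells gave 294 higher and 248 lower in Runx3_fl and 637 and 1294 in Runx3. Comparison cells at 0 for co-receptors, Foxp3, Csf1r and Cd79a gave 23 and 9 in Runx3_fl and 410 higher in Runx3, where the median gene shifted by 0.14. Without NK-receptor members Runx3_fl had 19 and 43. Removing other-lineage cells gave 302 higher in Runx3. Between libraries the 10 CPM filter gave 874 higher and 768 lower, and removing other-lineage cells 401 higher.

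Alpha-beta UMIs were in 65.9% and 81.2% of thinned members of Runx3_fl and Runx3, and 96.6% without NK-receptor members of Runx3_fl. Gamma-delta UMIs were in 5.69% and 6.77% of thinned members, and in Runx3_fl in 14.3% with at least 3 Tcf7 or Lef1 UMIs and 9.66% without NK-receptor members. Cd4 was at 0 in 74.1% and 72.5% of thinned Foxp3 cells.

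Among ratios that had reached 1 log2 unit, signs changed for Eomes (-0.55) and Eya1 (-0.26) in Runx3_fl without NK-receptor members. Igkc (0.22) did so there without other-lineage cells. In Runx3 signs changed for Ikzf2 (-0.071) and Lyz2 (0.35) in cells of 3000 to 10000 UMIs. They also changed for Itgam (0.50), Lyz2 (1.38) and S100a8 (0.48) without other-lineage cells, and for Igkc (2.81) with comparison cells at 0. UMIs of Lyz2 and S100a8 were themselves among those that marked other-lineage cells. Apart from these constructions the cause was not tested. Without cells holding Xist UMIs the members were 21.1% and 42.7% of Tcf7/Lef1 T cells, and an NK receptor UMI was in 51.5% of those of Runx3_fl. Depth limits what a missing co-receptor UMI shows, and 1 library per group limits every difference between libraries.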
